A study of Mus musculus with 10 samples.

Results

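Secretoglobins are small secreted proteins, and 7 genes of the family were followed in mouse prostate luminal epithelial cells: Scgb2b7, Scgb2b20, Scgb2b24, Scgb2b2, Scgb2b27, Scgb1a1 and Scgb3a1. They were chosen by name with their differences between the groups of arrays already known. A member is the row of the deposited array table that is annotated with that single symbol, and each of the 7 had 1 such row among 30142 genes so measured. Their differences between groups are therefore given as descriptions, with no p-value, and support nothing by themselves. Another 20 genes whose symbols begin with Scgb were measured under a single symbol and were tested, and 7 further rows name several secretoglobins at once.

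All mice were male and carried Hoxb13-rtTA and TetO-H2BGFP, so that doxycycline induces a nuclear green fluorescent protein in cells that use Hoxb13, a transcription factor of the prostate lineage. Every group, the intact one included, received doxycycline at 2 mg/ml in drinking water for 1 week. The intact group (n = 3 arrays) had no surgery. Orchiectomy of the castrated group (n = 3) took place at age 12 weeks, with 6 weeks of regression after it. The regenerated group (n = 4) was castrated likewise and then carried testosterone implants for 4 weeks. The regenerated mice were further from surgery than the castrated ones, so testosterone and the added weeks cannot be told apart. The cells were sorted for the fluorescent protein, CD24 and intermediate CD49f, and against CD45, CD11b and a macrophage antigen. Titles number the arrays as biological replicates, but they leave unsaid whether each holds a single animal or a pool. A p-value below therefore only sets a difference of group means against the spread among these arrays, which may not be the spread among single animals. In sorted bulk cells, fewer cells of a kind and less RNA per cell cannot be told apart.

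Secretoglobins fold into small alpha-helical subunits that pair through disulfide bonds around a hydrophobic pocket. In the mouse the family expanded into tandem copies on chromosome 7 that encode androgen-binding proteins, known from saliva and tears, in which an alpha subunit (the Scgb1b genes) pairs with a beta or gamma subunit (the Scgb2b genes). The proteins are named for binding androgens, which is separate from being regulated by them. Scgb1a1, also called uteroglobin or club cell secretory protein, and Scgb3a1 lie elsewhere, on chromosomes 19 and 11, and are best known from the airway epithelium.

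In the RefSeq annotation of GRCm38.p6 the cluster holds 19 Scgb1b and 29 Scgb2b entries, pseudogenes included, with 0 other protein-coding genes between them. The copies are similar enough for rows of the array to carry several symbols. The rows Scgb2b15;Scgb2b17 and Scgb2b17;Scgb2b15 held identical values on all 10 arrays, and their symbols cannot be separated. The values of 1 Scgb2b gene may likewise hold signal from its near-identical relatives, so the genes of the cluster are not independent measurements.

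The promoters of Scgb2b7, Scgb2b20, Scgb2b24 and Scgb2b27 are shown because these 4 members were lowest in castrated arrays and above background in the other groups on most arrays. Each stretch is the 250 bases before the annotated start, from RefSeq on GRCm38.p6, 5′ to 3′ on the strand of the gene, and capitals mark TGTTTGTTCT. The table held a promoter for 6 of the 7 members, all but Scgb1a1.
Scgb2b7, chr7:31705755-31706004, minus strand: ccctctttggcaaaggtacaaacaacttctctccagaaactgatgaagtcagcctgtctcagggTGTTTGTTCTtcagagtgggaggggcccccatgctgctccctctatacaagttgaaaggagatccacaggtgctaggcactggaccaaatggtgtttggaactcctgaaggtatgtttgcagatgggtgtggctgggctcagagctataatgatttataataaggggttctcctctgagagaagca
Scgb2b20, chr7:33366320-33366569, minus strand: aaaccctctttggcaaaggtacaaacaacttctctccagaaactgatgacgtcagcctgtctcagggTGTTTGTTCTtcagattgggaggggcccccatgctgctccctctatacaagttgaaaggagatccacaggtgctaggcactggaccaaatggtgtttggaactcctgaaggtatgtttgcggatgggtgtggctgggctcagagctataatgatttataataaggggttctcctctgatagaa
Scgb2b24, chr7:33739296-33739545, minus strand: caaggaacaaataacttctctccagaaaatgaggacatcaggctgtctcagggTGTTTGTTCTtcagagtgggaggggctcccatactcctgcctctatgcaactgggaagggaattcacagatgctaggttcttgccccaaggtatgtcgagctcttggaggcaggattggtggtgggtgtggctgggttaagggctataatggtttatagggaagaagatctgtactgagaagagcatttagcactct
Scgb2b27, chr7:34013943-34014192, minus strand: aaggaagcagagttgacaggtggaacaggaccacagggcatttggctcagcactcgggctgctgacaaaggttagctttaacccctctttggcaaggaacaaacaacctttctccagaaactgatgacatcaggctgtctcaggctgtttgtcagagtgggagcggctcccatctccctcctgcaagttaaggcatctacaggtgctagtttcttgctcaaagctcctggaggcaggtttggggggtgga

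The Scgb2b7 and Scgb2b20 stretches differed at 4 of 247 aligned bases (98.4% identity), whereas Scgb2b7 and Scgb2b24 differed at 51 of 238 (78.6%). TGTTCT is the half-site letters of androgen, glucocorticoid and progesterone receptor elements. It lay on either strand in 16 of 20 Scgb2b promoters, in 3 of 9 Scgb1b promoters and in 16.1% of all 32851 promoter stretches of this length. The longer TGTTTGTTCT contains it and was cut from the Scgb2b7 promoter after the sequences were seen. This block lay in 15 of 20 Scgb2b promoters, that of Scgb2b7 included, 0 of 9 Scgb1b promoters and 0.201% of all promoters. The paired element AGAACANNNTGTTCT was in 0 of the Scgb2b and 0 of the Scgb1b stretches, and in 0.00913% of all. These matches are letters in a window, searched on both strands, and not binding sites.

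The Scgb2b genes measured under a single symbol differed in these letters. The 30-base stretches below show the block in a gene that holds it and in 3 that do not. Scgb2b21 lacks the block too and is not shown, as even its opening letters were absent from that promoter. Of the 13 measured genes 9 held TGTTTGTTCT, with its first base between -197 and -183 from the annotated start.
Scgb2b10, chr7:32094123-32094152, minus strand: tgtctcaggcTGTTTGTTCTtcagagtggg
Scgb2b3, chr7:31362252-31362281, minus strand: aacatcaggctgtttgttcgtcagagtggg
Scgb2b26, chr7:33945144-33945173, minus strand: tgtctcaggatgtttgttcctcagagtggg
Scgb2b27, chr7:34014028-34014057, minus strand: tgtctcaggctgtttgtcagagtgggagcg

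Values are log2 intensities after RMA, the background correction, quantile normalization and probe summary of these arrays, and a step of 1 is a doubling. Background control probes served as a floor: the highest of them reached 4.66 to 5.58 on 9 arrays and 6.40 on castrated replicate 3. Regenerated replicate 4 stood apart from its group on the first principal component, at 3.03 against -31.0 to -23.2 for the other regenerated arrays, -47.6 to -40.5 for intact and 64.1 to 75.5 for castrated arrays. Results for regenerated arrays are therefore also given without it. The luminal label held: all 7 measured luminal markers, among them the keratins Krt8 and Krt18, were above the highest background value of each array. The leukocyte gene Ptprc (CD45) had means of 3.64, 3.63 and 3.60 in intact, castrated and regenerated arrays. Of the other leukocyte markers, Cd3e (means 7.05, 10.45 and 6.40) and Cd68 (8.27, 8.92 and 8.43) exceeded the highest background value on every array. Lyz2 did so on 1 array of each group. The gene whose promoter drives the fluorescent reporter, Hoxb13, had means of 10.39, 7.74 and 9.47 in intact, castrated and regenerated arrays (limma adjusted p = 0.00416 after castration), and its part in the results was not tested.

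Scgb2b7, which encodes a beta or gamma subunit of androgen-binding protein, was high in intact cells and at background after castration. It measured 13.46, 14.77 and 11.95 on the intact arrays, 3.69, 4.37 and 3.88 on the castrated arrays, and 13.92, 10.78, 12.34 and 8.92 on the regenerated arrays. The castrated arrays overlapped with neither of the other groups, intact and regenerated arrays overlapped, and regenerated replicate 4 was the lowest of the regenerated arrays. The means were 13.39 ± 1.41 (SD, n = 3), 3.98 ± 0.35 (n = 3) and 11.49 ± 2.14 (n = 4), and 12.35 ± 1.57 for regenerated arrays without replicate 4.

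The fitted difference of Scgb2b7 between castrated and intact arrays was -9.41 ± 1.08 log2 (SE from limma). All 3 castrated values lay under the highest background value of their own array, so this size depends on the floor. With each castrated array raised to its own highest background value, intact arrays were at least 238.5-fold higher (7.90 log2). Regenerated arrays were 7.51 ± 1.01 log2 above castrated ones, at least 63.8-fold by the same bound, and 1.90 ± 1.01 log2 below intact ones. Without regenerated replicate 4 these 2 differences were 8.36 and -1.05 log2, so replicate 4 widened the gap to intact arrays by over 1.5 times.

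Scgb2b20, another subunit gene of the same kind whose promoter is nearly that of Scgb2b7, had the same order of groups. Its values were 14.57, 15.21 and 13.23 on intact arrays, 5.32, 5.16 and 5.01 on castrated arrays, and 14.76, 11.98, 13.60 and 10.05 on regenerated arrays. Again only the castrated arrays stood clear of the others, and replicate 4 was lowest of the regenerated arrays. The fitted difference was -9.18 ± 0.98 log2 after castration and 7.44 ± 0.92 log2 between regenerated and castrated arrays. As bounds these are at least 419-fold and at least 125.5-fold. Regenerated arrays lay 1.74 ± 0.92 log2 below intact ones, or 0.89 log2 below without replicate 4.

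**Figure D1:**
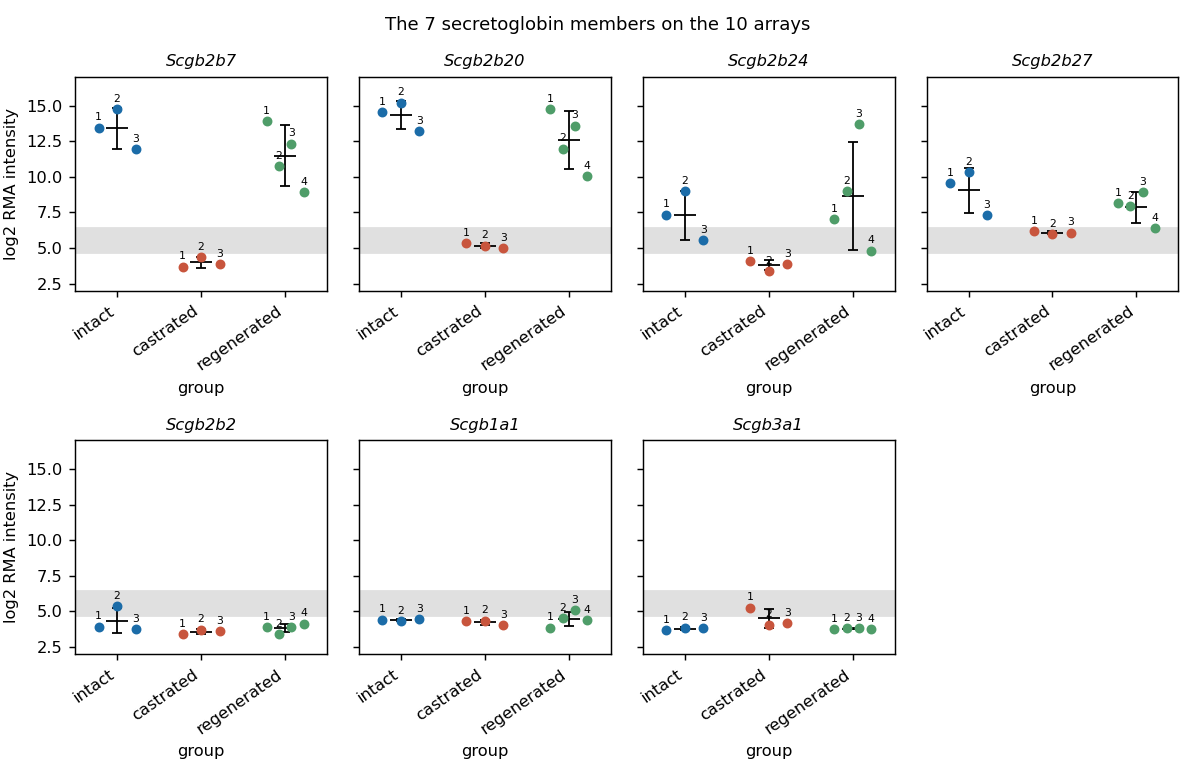
Log2 RMA intensity of the 7 members in intact (n = 3), castrated (n = 3) and regenerated (n = 4) cells; each point is an array with its replicate number, black bars are the mean ± SD, and the grey band spans the 10 arrays' highest background control values (4.66 to 6.40). Scgb2b7 and Scgb2b20 lie in or below that band after castration and are high in both other groups, while Scgb1a1 and Scgb3a1 stay low throughout.

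Across the 10 arrays Scgb2b7 and Scgb2b20 had a Pearson r of 0.998. This describes 2 rows that share arrays and may share probe sequence. The genes most like them were the same 3, chosen by the highest Pearson r over 10 arrays. For Scgb2b7 they were Crabp1, a cytosolic retinoic acid-binding protein (r = 0.989), Rmdn2 (0.987) and Ivns1abp (0.985), and for Scgb2b20 Ivns1abp (0.991), Crabp1 (0.991) and Rmdn2 (0.990). Crabp1 measured 12.17 to 13.16 on intact, 7.15 to 7.38 on castrated and 9.24 to 12.54 on regenerated arrays, and regenerated replicate 4 was again its lowest regenerated value.

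Scgb2b24 differed from that pair in how it varied among regenerated arrays. It measured 7.35, 8.98 and 5.54 on intact arrays and 4.09, 3.39 and 3.85 on castrated arrays. The regenerated arrays held 7.02, 9.01, 13.69 and 4.81. Castrated arrays lay below every intact and every regenerated array, but the regenerated ones ran from below the lowest intact value to 13.69 in replicate 3, above the highest intact value.

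The means of Scgb2b24 were 7.29 ± 1.72 (n = 3), 3.78 ± 0.35 (n = 3) and 8.63 ± 3.78 (n = 4). Differences were -3.51 ± 1.77 log2 for castrated against intact and 4.85 ± 1.66 log2 for regenerated against castrated arrays. As all 3 castrated values were under background, the bounds were 1.79 log2 (3.47-fold) and 3.14 log2 (8.79-fold). Regenerated arrays were 1.34 ± 1.66 log2 above intact ones, and without regenerated replicate 3 they were 0.35 log2 below. On that array the basal marker list (Krt5, Krt14, Krt15, Trp63) had a summed level of 12.99 log2, against 14.02 in regenerated replicate 2 and 9.90 to 11.60 in the others. Krt15 made up nearly all of it (12.98 there), while Krt5, Krt14 and Trp63 were 4.64, 4.71 and 3.89, under the highest background value of that array. The part of basal cells in the result was not tested.

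Scgb1b24, the alpha-subunit gene next to Scgb2b24 in the annotation, was also highest in regenerated replicate 3 (7.06, against 4.14 to 5.62 in the other regenerated and 4.55 to 5.69 in intact arrays). The genes most like Scgb2b24 over 10 arrays were Dnaaf5, an assembly factor of ciliary dynein (r = 0.962), Higd1a, a mitochondrial protein (0.943) and Nipal2 (0.938). All 3 had their highest value in regenerated replicate 3.

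Scgb2b27, at the far end of the cluster from Scgb2b2, spanned a smaller range. It measured 9.53, 10.35 and 7.30 on intact, 6.18, 5.998 and 6.08 on castrated, and 8.17, 7.93, 8.93 and 6.39 on regenerated arrays. The castrated values were close together and below all others, and regenerated replicate 4 lay just above them. The differences were -2.98 ± 0.75 log2 after castration, 1.77 ± 0.70 log2 between regenerated and castrated arrays (2.26 without replicate 4), and -1.20 ± 0.70 log2 between regenerated and intact arrays (-0.72 without replicate 4). Its likest genes were Uap1, which makes the sugar donor UDP-N-acetylglucosamine (r = 0.984), Eaf2, an elongation factor partner (0.983) and Map3k13 (0.972).

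The other 3 members stayed low. Scgb2b2 reached 5.34 on intact replicate 2 and lay between 3.42 and 4.14 on the other 9 arrays. Only that value exceeded the highest background value of its array. Scgb2b2 holds TGTTTGTTCT in its promoter stretch as Scgb2b7 does, yet had no level above background to follow.

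Scgb1a1, the airway club cell marker, was under the highest background value on each of the 10 arrays. Its means were 4.39 ± 0.06 in intact (n = 3), 4.23 ± 0.19 in castrated (n = 3) and 4.47 ± 0.49 in regenerated arrays (n = 4). Scgb3a1, another airway secretoglobin, was 3.69 to 3.86 on intact and 3.75 to 3.83 on regenerated arrays. It was 5.26, 4.07 and 4.19 on castrated arrays, all above the other groups, but only the first exceeded its array's highest background value of 5.04. The lung genes Sftpc, Sftpb and Sftpa1 had means of 3.41 to 4.16 in every group.

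Castrated arrays lay wholly below intact ones for 5 of the 7 members (Scgb2b7, Scgb2b20, Scgb2b24, Scgb2b27 and Scgb2b2), where this held for 11.5% of all genes, and wholly above them for Scgb3a1, where it held for 17.4%. Regenerated arrays lay wholly above castrated ones for 4 members (6.53% of all genes) and wholly below for Scgb3a1 (9.51%). Limma called 3 members lower in castrated than in intact arrays at an adjusted p under 0.05, namely Scgb2b7, Scgb2b20 and Scgb2b27, where 3.19% of all genes were called lower. Between regenerated and castrated arrays it called 2 higher, Scgb2b7 and Scgb2b20, where 1.97% of all genes were called higher. Since the members were chosen with these contrasts known, nothing is read from these counts. The members' median difference was -2.98 log2 after castration, against 0.04 over all genes, and 1.77 between regenerated and castrated arrays, against -0.01. Between regenerated and intact arrays limma called 0 of the 7, 0 had an unadjusted p under 0.05, and 0.0365% of all genes were called. The call of Scgb2b27 ended without intact replicate 1 or 2, without any 1 of the 3 castrated arrays, without regenerated replicate 2, or without a variance trend. Without castrated replicate 1, Scgb3a1 was called higher in castrated arrays, by 0.34 log2, and lower in regenerated ones. All of its remaining values were under background, so that call compares values within the background range. Scgb2b24 was called higher in regenerated arrays only without replicate 4 or with array weights, and lower in castrated arrays only when those 2 groups were fitted alone.

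Secretoglobin genes that were not among the 7 were tested over all genes. Of these 20, limma with Benjamini-Hochberg adjustment called 7 lower and 0 higher in castrated arrays, beside 3.19% of all genes called lower. The median difference was -1.41 log2, against 0.04 over all genes. That count came to 6 of 8 measured Scgb2b genes and the only measured Scgb2a gene, and 0 of 9 Scgb1b genes, of which 5 had an unadjusted p under 0.05. The 7 were picked with results of the whole family known, and copies this alike may share signal, so these calls are not independent of each other or of Scgb2b7 and Scgb2b20.

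Scgb2b10 fell furthest among them. It measured 11.01, 9.90 and 9.74 on intact, 5.08, 4.62 and 5.24 on castrated, and 8.77, 8.10, 8.84 and 6.84 on regenerated arrays. No castrated array reached any other, and no regenerated array reached the intact ones. Of the castrated arrays 1 was above background, and the bounds were 4.71 log2 for intact and 2.63 log2 for regenerated over castrated arrays. The difference was -5.23 ± 0.51 log2 after castration (limma adjusted p = 0.000319), and 3.15 ± 0.48 log2 between regenerated and castrated arrays (adjusted p = 0.00424).

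Scgb2b18 (-3.96 ± 0.60 log2, limma adjusted p = 0.00304), Scgb2b11 (-3.76 ± 0.50, 0.00165), Scgb2b12 (-3.14 ± 0.65, 0.0159), Scgb2b6 (-2.78 ± 0.39, 0.00218) and Scgb2b21 (-1.60 ± 0.26, 0.00516) fell as well. For Scgb2b18, Scgb2b12 and Scgb2b6 all 3 castrated arrays were under background, and the falls were at least 2.91, 1.66 and 1.46 log2 with those arrays raised to their highest background value. Scgb2b11 and Scgb2b21 had 1 castrated array above background, and their bounds were 3.24 and 1.14 log2. Scgb2b12 lost its call without intact replicate 2 (adjusted p = 0.0602) or castrated replicate 2 (0.0518). Scgb2a2, of another branch of the family, fell by 1.56 ± 0.41 log2 (limma adjusted p = 0.042; bound 0.69 log2, with castrated arrays under background), a call lost in 9 of its 18 alternatives, 7 of them arrays left out: either of intact replicates 1 and 2, any castrated array, or regenerated replicate 2 or 3. Scgb2b26 (-1.27 ± 0.44, adjusted p = 0.121) and Scgb2b3 (-0.28 ± 0.16, 0.369) did not pass.

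**Figure D2:**
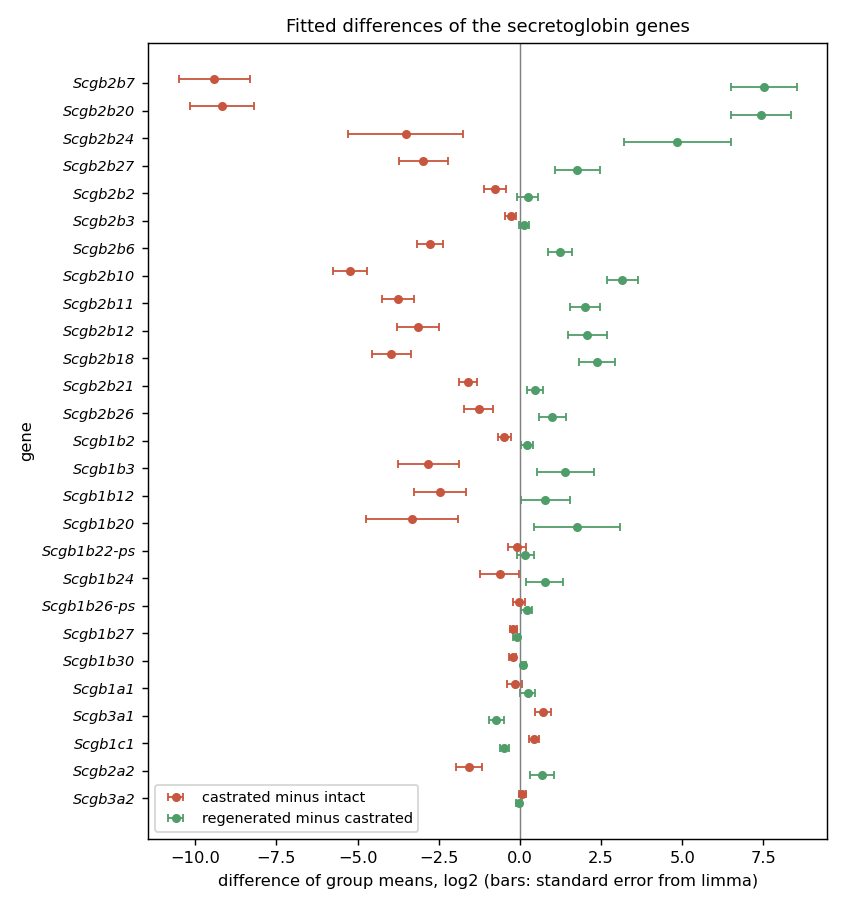
Fitted differences of group means for the 27 secretoglobin genes measured under a single symbol, in log2, for castrated minus intact (red) and regenerated minus castrated arrays (green), with the standard error from limma as bars. Scgb2b7 and Scgb2b20 lie at -9.41 and -9.18 after castration, and the tested Scgb2b genes run from -5.23 to -0.28. The regenerated differences point the other way for each measured Scgb2b gene. For Scgb2b3 (0.13 ± 0.15) and Scgb2b2 (0.25 ± 0.32) they are smaller than their standard errors and taken near background, so those signs show little.

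After testosterone 3 of the 20 rose over castrated arrays and 0 fell, beside 1.97% of all genes called higher: Scgb2b10, Scgb2b18 (2.38 ± 0.56 log2, limma adjusted p = 0.0372) and Scgb2b11 (2.01 ± 0.47, 0.0363), with bounds of 1.33 and 1.49 log2. The median of the 20 was 0.72 log2, against -0.01 over all genes. That count was 5 without regenerated replicate 4. It was 1, Scgb2b10, without intact replicate 1, any castrated array or regenerated replicate 3. Between regenerated and intact arrays limma called 0 of the 20, and 8 had an unadjusted p under 0.05, with a median of -0.59 log2. Rows that name several Scgb2b genes had the same order: Scgb2b15;Scgb2b17 had means of 9.30 ± 0.65, 4.75 ± 0.22 and 7.54 ± 0.72 in intact, castrated and regenerated arrays, and was not among the genes tested.

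Of the 8 tested Scgb2b genes, 5 hold TGTTTGTTCT and all 5 fell, beside 3.19% of all genes called lower. Of the 3 without it Scgb2b21 fell and Scgb2b26 did not pass. Scgb2b3, the last of these 3, was under background on each array and so could not show a fall. Among the members, Scgb2b7 and Scgb2b20 hold it and were called lower, Scgb2b24 and Scgb2b2 hold it and were not called, and Scgb2b27 was called lower without it. These are counts over related copies for a block cut from the promoter of Scgb2b7, the member with the largest fall, after the sequences were seen. Scgb2b7 holds it by that choice, and Scgb2b20 has nearly the same promoter. Nothing is read from the counts, and whether the letters bear on the response was not tested.

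Of the 9 measured Scgb1b genes, Scgb1b2, Scgb1b26-ps, Scgb1b27 and Scgb1b30 were under background on each array. Scgb1b20, Scgb1b3 and Scgb1b12 had the widest spans of the 9. The untested row for Scgb1b7, Scgb1b19 and Scgb1b29 spanned more, 7.92 log2 against 5.92 for Scgb1b20. Scgb1b20, which is next to Scgb2b20 in the annotation, measured 11.03, 12.38 and 6.77 on intact, 6.55, 6.75 and 6.88 on castrated, and 7.09, 9.15, 11.22 and 6.46 on regenerated arrays. Intact replicate 3 thus lay within the castrated range for Scgb1b20, although Scgb2b20 on the same array was 13.23, far above its own castrated values. Regenerated replicate 1 held the highest regenerated value of Scgb2b20, yet its Scgb1b20 value of 7.09 was close to the highest castrated value of 6.88. The difference of Scgb1b20 after castration was -3.33 ± 1.42 log2 (limma adjusted p = 0.208), and -4.98 log2 without intact replicate 3 (adjusted p = 0.035).

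Scgb1b3 and Scgb1b12 had the same 2 high intact arrays. Scgb1b3 was 8.65, 10.13 and 5.76 on intact and 5.24 to 5.54 on castrated arrays (-2.82 ± 0.93 log2, limma adjusted p = 0.102). Scgb1b12 was 8.23, 10.27 and 6.28 on intact and 5.62 to 6.03 on castrated arrays (-2.47 ± 0.80, adjusted p = 0.0951). Without intact replicate 3 both were called (adjusted p = 0.00765 and 0.0105). Scgb1b27, which stands beside Scgb2b27, was 3.54 to 4.15 on all 10 arrays, and Scgb1b2 and Scgb1b30 were at most 4.64. The difference in response between Scgb1b and Scgb2b genes was not itself tested.

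**Figure D3:**
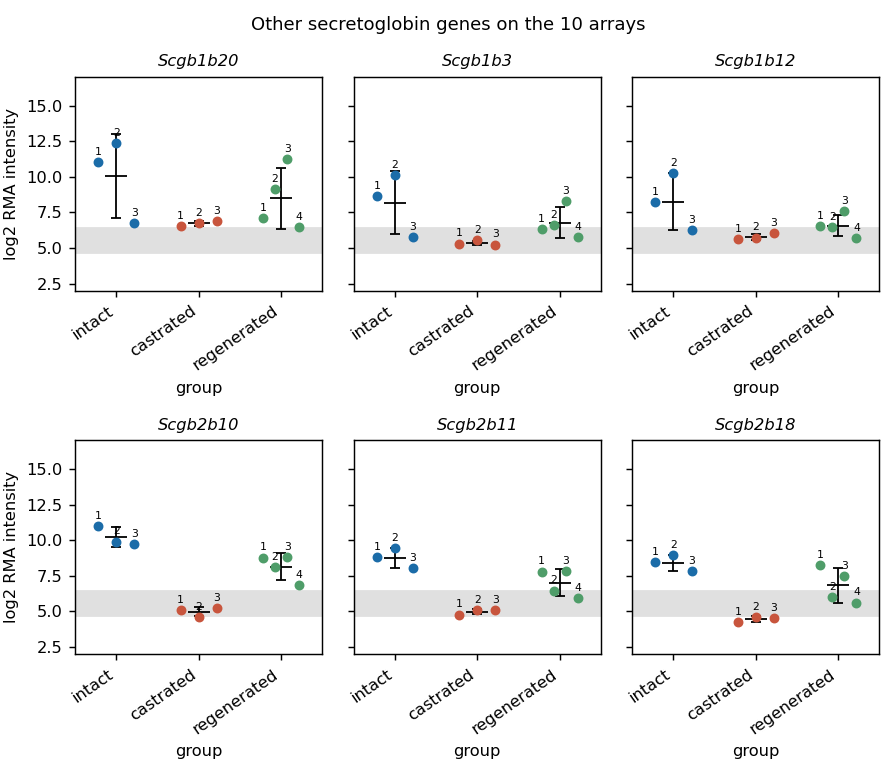
Log2 RMA intensity of 3 Scgb1b genes (alpha subunits) and 3 Scgb2b genes in intact (n = 3), castrated (n = 3) and regenerated (n = 4) cells; points are arrays with their replicate numbers, black bars the mean ± SD, and the grey band the range of the arrays' highest background control values. Intact replicate 3 lies near the castrated arrays for Scgb1b20 (6.77) and Scgb1b3 (5.76) but well above them for Scgb2b10 (9.74).

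**Figure D4:**
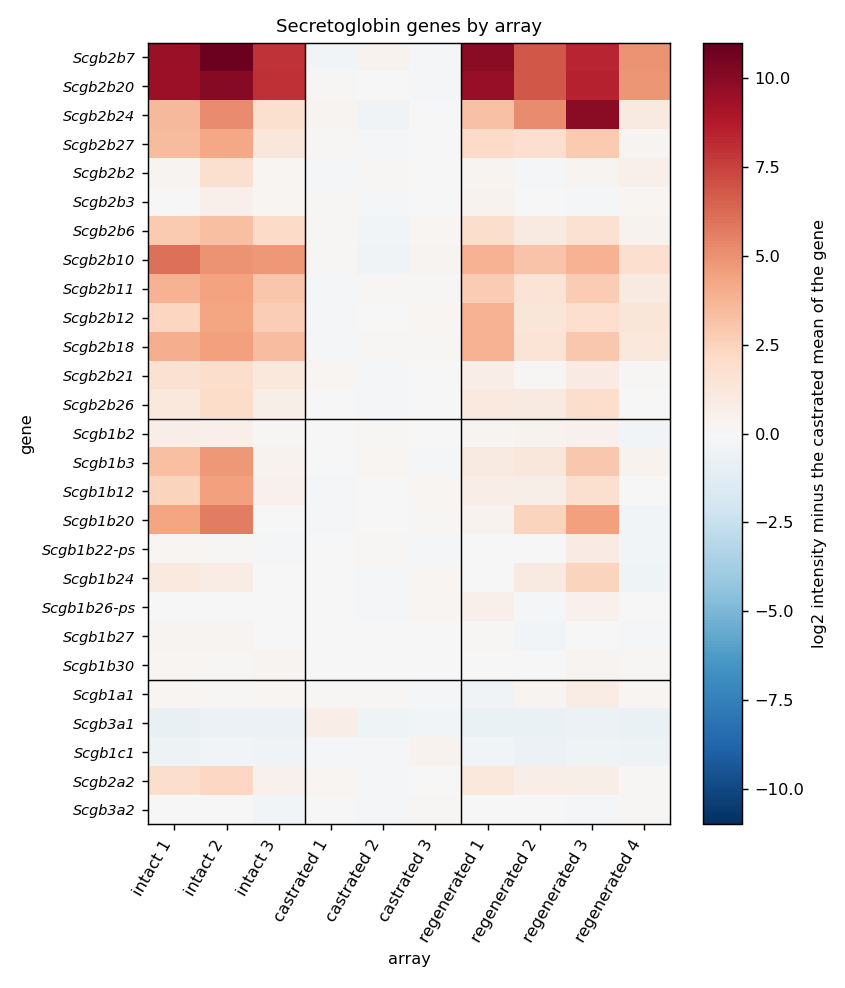
Log2 intensity of the 27 single-symbol secretoglobin genes on each array minus the castrated mean of the same gene, with Scgb2b genes on top, Scgb1b genes in the middle and the others below; vertical lines part the groups. Scgb2b7 and Scgb2b20 are far above their castrated mean on every intact and regenerated array. The Scgb1b signal sits mainly in intact replicates 1 and 2 and regenerated replicate 3, and for Scgb1b20 and Scgb1b24 also in regenerated replicate 2.

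Members of the Scgb2b group with a changing level related to Scgb1b20 to different degrees. Over the 10 arrays Scgb2b27 had a Pearson r of 0.917 with Scgb1b20 and 0.954 with Scgb1b3, Scgb2b24 had 0.788 and 0.717, Scgb2b7 had 0.658 and 0.744, and Scgb2b20 had 0.648 and 0.727. The points share the 3 groups, so any pair of genes that castration lowers will correlate, and these values are descriptions.

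Other genes of the secretory programme were followed beside the family. Of 12 prostate secretory products 8 fell after castration, beside 3.19% of all genes called lower, with a list median of -4.64 log2 against 0.04 over all genes. Spink1 fell furthest of them (-11.98 ± 0.76 log2, limma adjusted p = 2.79e-05). Next was Wfdc3, a whey acidic protein family member (-9.43 ± 0.60, with castrated arrays under background and a bound of 8.61). Msmb, a seminal plasma protein, and Tgm4, the prostate transglutaminase, followed (-9.25 ± 0.75 and -8.68 ± 0.84, limma adjusted p = 8.63e-05 and 0.000307). After testosterone 9 of the 12 rose over castrated arrays, beside 1.97% of all genes called higher. Scgb2b7, Scgb2b20, Scgb2b24 and Scgb2b27 had their lowest regenerated value on regenerated replicate 4. That array also held the lowest regenerated value of 6 of the 12 secretory products: Msmb, Spink1, Azgp1, Apof, Defb50 and Wfdc3. It held the highest regenerated value of Tgm4 (19.40), Pbsn (19.39) and Pate4 (16.87). The share of all genes that were lowest on that array was not counted. Of 6 measured lineage and androgen-responsive regulators 4 fell (3.19% of all genes) and 1 rose (4.82%) after castration, with Fkbp5, a co-chaperone of steroid receptors, at -2.72 ± 0.39 and Odc1, of polyamine synthesis, at -2.32 ± 0.37 (limma adjusted p = 0.0023 and 0.00398). Their summed level, carried mostly by Foxa1 and Odc1, was lowest of the regenerated arrays in replicate 4 (12.80, against 13.48 to 13.56). Of the 6, 4 were lowest there: Foxa1, Hoxb13, Fkbp5 and Odc1. Gata2 was highest there (8.59), and Zbtb16 (9.56) was not lowest.

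Genes linked to club-like epithelium, the cell type that Scgb1a1 and Scgb3a1 mark in the airway, were measurable in part: 14 of 19 exceeded the highest background value on at least 1 array. Of the 19, 5 rose and 1 fell after castration, where 4.82% of all genes were called higher and 3.19% lower. Of those called higher, Aldh1a3 was under background on each array and Reg3g on all but 1. Clu, a secreted chaperone, rose by 3.07 ± 0.44 log2, Ly6d, a surface antigen, by 2.73 ± 0.37 and Cyp2f2, a cytochrome P450 of airway club cells, by 1.59 ± 0.37, while Psca, a surface antigen, fell by 2.82 ± 0.42 (limma adjusted p from 0.00168 to 0.0246). Cyp2f2 had means of 14.59, 16.18 and 15.70 in intact, castrated and regenerated arrays, on which Scgb1a1 remained under the highest background value.

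Markers of other cell types were set beside the family. The summed level of 8 stromal markers was 11.45 to 12.79 log2 on intact, 7.71 to 9.36 on castrated and 11.02 to 11.93 on regenerated arrays, the same order as Scgb2b7. One of them carried it, Dcn, a matrix proteoglycan, with means of 12.23, 7.53 and 11.37, while 7 of 8 had group means between 3.43 and 4.35, the defining Col1a1, Col1a2 and Col3a1 included. Of 4 urothelial markers 2 rose after castration, Upk1b (10.04 to 15.59) and Upk3a (4.20 to 9.27), opposite to the Scgb2b genes. Upk1a was high in every group, with means of 17.49, 17.74 and 17.65 in intact, castrated and regenerated arrays. Neither it nor Upk2 (4.80, 6.08 and 5.48) was called. Among 9 leukocyte markers Itgam alone was called after castration, at 3.91 in intact and 4.29 in castrated arrays, under background on all 10. The T cell gene Cd3e had means of 7.05, 10.45 and 6.40 (limma adjusted p = 0.0507 after castration), and was called lower in regenerated than in castrated arrays (-4.04 ± 0.87 log2, adjusted p = 0.0253). Of 7 seminal vesicle markers limma called 0 in any contrast (3 had an unadjusted p under 0.05 after castration, 1 between regenerated and castrated and 0 between regenerated and intact arrays), and their summed level ran from 12.07 to 16.01 on intact, 13.94 to 15.63 on castrated and 7.36 to 17.43 on regenerated arrays. Pate4 carried that sum on the castrated arrays, with values of 15.63, 13.92 and 15.18. Of the other seminal vesicle genes, Svs2 had means of 9.95, 4.81 and 9.34 in intact, castrated and regenerated arrays, Svs4 8.57, 5.31 and 6.87, and Svs5 12.47, 6.61 and 10.82, the same order of groups as Scgb2b7, and Svs3a, Svs3b and Svs6 were under background on each array. Svs2, Svs4, Svs5 and Pate4 were each highest of the regenerated arrays on replicate 4, where Scgb2b7 and Scgb2b20 were lowest. The part of these cells in the results was not tested.

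Genes that flank the cluster in the annotation were tested too. Of 4 measured neighbours Hpn, Wtip and Pdcd2l did not pass in either contrast. Hpn was under background on each array and so could not show a fall. Gramd1a, a sterol transfer protein, was 7.30 in intact, 5.91 in castrated and 9.03 in regenerated arrays (limma adjusted p = 0.117 after castration and 0.00319 between regenerated and castrated arrays).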

How the data were processed

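Total RNA of sorted luminal cells was hybridised to 10 ClariomD arrays. The authors deposited log2 values, and the submitters' processing notes list RMA and Affymetrix Expression Console. Versions, the genome build and any filters are not given in the sources used here. Because RMA forces a common distribution, it can shrink a change that all transcripts share. Array medians were 4.12 to 4.22, and 0 pairs of arrays had mostly equal values. Precision is limited by how few arrays there are.

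Symbols came from the platform annotation, which can be old, with 825 symbols updated by gene identifier against RefSeq (GRCm38.p6). Of 65956 non-control rows, 30604 had 1 symbol and 2146 several. Where several rows shared a symbol, the brightest on average was kept, which left 30142 genes. The model was limma 3.58.1 (R 4.3.3) with a mean for each of the 3 groups, no covariate and a variance trend, two-sided, with Benjamini-Hochberg adjustment over all genes and calls at an adjusted p under 0.05. The script was tested on simulated data. Lower bounds replace a castrated value by the highest of 23 background control values on that array where that is higher. Promoters, the first 250 bases of the RefSeq entries, were aligned globally with Biopython 1.88.

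The members, gene lists and tests were chosen with earlier results of these data known. Named are the 7 members, the other measured secretoglobins, the 3 genes most like each member that spans at least 2 log2 (leaving out Scgb, predicted, non-coding and receptor symbols), up to 4 called genes per list and neighbours of the cluster. Marker lists cover luminal, basal, seminal vesicle, leukocyte, stromal, endothelial, urothelial and lung cells. For stromal, endothelial and urothelial markers, 0 of 8, 0 of 3 and 2 of 4 were called higher and 1, 0 and 0 lower after castration. Alternatives changed the variance trend, array weights, normalization, filter, row choice, samples, block and left out each array.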

Additional observations from a re-analysis of the deposited data

How the results depend on the processing

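All 112 alternative values of the 7 members kept their sign for castrated against intact, and all 112 for regenerated against castrated; 105 of 112 did for regenerated against intact. Each moved by no more than the larger SD of the groups compared. Leaving out an array cannot pass that limit. Fitting only the compared groups, averaging the rows of a symbol or leaving out an array of the third group cannot change a member's difference at all. Little is therefore read from these counts.

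Counts of called members were 2 to 3 with an array left out, for castrated against intact and for regenerated against castrated, and 0 for regenerated against intact. Counts of other secretoglobins were 5 to 10 (main 7), 1 to 5 (main 3) and 0 with an array left out. With array weights 12 were lower after castration. For regenerated against castrated the count was 1 without a variance trend, 5 among genes above the highest background value and 1 with the 2 groups alone.

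Over all genes, 2414 were called after castration, 4258 with array weights and 1019 to 3271 with an array left out. For regenerated against castrated 1500 were called, 822 with the 2 groups alone and 816 to 2127 with an array left out. For regenerated against intact 11 were called, 2 without a trend, 70 with array weights, 1 after quantile normalization again, 22 among genes above the highest background value, 0 over every non-control row and 0 with the 2 groups alone; the range with an array left out was 0 to 78. After quantile normalization again 1095 genes were higher and 1136 lower after castration, against 1452 and 962, and 712 higher and 729 lower in regenerated arrays, against 593 and 907. The cause of these shifts was not tested.

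Same-numbered arrays correlated in their deviations between -0.157 and 0.264, so the numbers were not taken to pair samples. With the replicate block, 4 genes were called for regenerated against intact, and 4 other secretoglobins, Scgb2b6 added, for regenerated against castrated. The block leaves regenerated replicate 4 without weight.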
